A study of Mus musculus with 2 samples.

Results

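Interferon-low neutrophils were described in 2 single-cell libraries of leukocytes from mouse mammary tumours. Barcodes were kept where 200 or more genes were detected and mitochondrial genes gave no more than 10% of UMIs (unique molecular identifiers, 1 per counted transcript). It was taken as a neutrophil where S100a8 and S100a9 together gave at least 1% of its UMIs and Cd3d, Cd3e, Cd3g and Cd79a gave 0. A neutrophil was interferon-low where Isg15, Rsad2, Ifit1 and Ifit3 together gave under 0.3% of its UMIs. The cells were thus selected on measured levels of these 10 genes, which are not a result. The rule found 119 cells among the 4512 barcodes of the series and the 2610 kept cells: 104 in the library labelled shPml and 15 in the library labelled shCTRL. The 61 remaining neutrophils, 57 and 4, were interferon-high. In the shPml group, 4T1 cells expressing a short hairpin RNA named for Pml were placed in the mammary fat pad of mice (BALB/c strain, 6 to 8 weeks old). The shCTRL group received 4T1 cells with the shCTRL hairpin in mice of the same strain and age. Tumours were taken at day 14, when they were of similar size, and cells positive for CD45, the surface protein of leukocytes, were sorted. 4T1 is a mammary tumour line of the BALB/c strain that models breast cancer lacking hormone receptors and HER2. The hairpin was in the injected tumour cells, not in the neutrophils, and the sources used here do not give the number of mice behind a library. With 1 library in each group, differences could not be checked against replicates and carry no p-value. All intervals are exact, at 95%, and reflect counting error alone.

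Neutrophils are short-lived granulocytes that leave the bone marrow packed with granule proteins and are drawn into tumours by CXC chemokines. S100a8 and S100a9 encode the subunits of calprotectin, the most abundant protein of their cytosol. Type I interferon acts through the receptor IFNAR1-IFNAR2 and JAK kinases, and many promoters of its target genes hold the interferon-stimulated response element. The interferon genes of the rule are such targets: Isg15 encodes a ubiquitin-like modifier, Rsad2 the antiviral enzyme viperin, and Ifit1 and Ifit3 proteins that bind viral RNA. Neutrophils of mouse tumours are known to include cells with and without this response, and mature tumour neutrophils make the cytokine IL-1 beta and the chemokines CXCL2, CCL3 and CCL4.

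The promoters of the 4 rule genes are shown because these genes set which cells are described. Each run holds 250 bases before the start site and 50 after it, 5′ to 3′ on the gene's strand, from RefSeq on GRCm38.p6. Capitals mark GAAA followed, after any 2 bases, by GAAA again, a core of the interferon-stimulated response element, searched on both strands. Isg15 lies at chr4:156200769-156201068 (minus strand), Rsad2 at chr12:26456403-26456702 (minus), Ifit1 at chr19:34640639-34640938 (plus) and Ifit3 at chr19:34583279-34583578 (plus).
Isg15: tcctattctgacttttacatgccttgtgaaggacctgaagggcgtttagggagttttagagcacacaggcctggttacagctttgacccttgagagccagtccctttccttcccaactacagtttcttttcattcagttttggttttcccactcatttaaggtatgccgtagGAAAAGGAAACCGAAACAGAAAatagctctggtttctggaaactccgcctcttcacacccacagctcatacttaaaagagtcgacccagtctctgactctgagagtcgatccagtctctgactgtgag
Rsad2: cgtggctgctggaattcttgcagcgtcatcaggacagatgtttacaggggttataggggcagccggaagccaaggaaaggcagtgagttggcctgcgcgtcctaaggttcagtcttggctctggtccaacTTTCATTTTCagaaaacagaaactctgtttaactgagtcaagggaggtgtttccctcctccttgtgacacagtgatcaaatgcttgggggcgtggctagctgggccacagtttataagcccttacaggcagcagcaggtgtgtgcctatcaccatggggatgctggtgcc
Ifit1: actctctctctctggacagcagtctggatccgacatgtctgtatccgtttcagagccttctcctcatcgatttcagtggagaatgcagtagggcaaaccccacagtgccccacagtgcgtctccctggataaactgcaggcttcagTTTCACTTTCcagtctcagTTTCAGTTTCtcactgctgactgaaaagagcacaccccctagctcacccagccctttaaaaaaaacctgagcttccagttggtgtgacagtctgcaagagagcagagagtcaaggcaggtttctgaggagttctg
Ifit3: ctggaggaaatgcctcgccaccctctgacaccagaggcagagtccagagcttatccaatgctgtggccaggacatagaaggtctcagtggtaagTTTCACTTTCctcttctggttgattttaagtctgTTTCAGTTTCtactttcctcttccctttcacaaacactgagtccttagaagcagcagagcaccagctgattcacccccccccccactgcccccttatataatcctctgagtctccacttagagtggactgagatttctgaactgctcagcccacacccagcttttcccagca
Isg15 held 3 matches that overlap one another, starting at -78, -72 and -66 from the start site. Rsad2 held 1 match, from -120, and Ifit1 and Ifit3 held 2 each. The motif was in 3.44% of all 32851 promoters of this length, and in 3.99% of the 27025 genes with a promoter. Among genes with a promoter, it was in 18 of 32 from a list of 46 type I interferon targets outside the rule. It was also in 10 of 14 from a list of 21 interferon gamma targets. Of the NADPH oxidase, which makes the oxidative burst, 2 of 3 genes from a list of 7 held it. From a list of 24 mature neutrophil genes 1 of 22 did. A match is a description of these letters and not evidence of binding.

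The shPml library held 4227187 UMIs in 2268 barcodes and the shCTRL library 5044925 in 2244. The members' counts were 371336 (shPml) and 73091 (shCTRL) UMIs in total, with a median of 3017 and 4132 and 888.5 and 1173 genes per cell. The libraries shared 266 barcodes, among them 3 shPml and 2 shCTRL members. In each of those 3 pairs the shPml barcode was shallow (562, 998 and 529 UMIs) and its shCTRL partner deep (8855, 15317 and 7973 UMIs). The partner of 8855 UMIs was no member, since it was not a neutrophil by the rule. The 15317-UMI cell gave 21.0% of all shCTRL member UMIs, and 5 shPml members over 10000 UMIs gave 19.6% of theirs. Values that rest on such cells are therefore given with and without them.

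Markers of other leukocytes were found at low levels in the members. The 14 T and NK cell markers gave 13 UMIs in 11 shPml members and 14 UMIs in 9 shCTRL members. Scaled to the UMIs of each class this was more in shCTRL, with a log2 ratio of -2.45 (-3.66 to -1.25). The 5 platelet and 5 red cell markers were at 0 in both. The 13 monocyte and macrophage markers were in 53 and 11 cells. Their level, as CPM (counts scaled to 1000000 UMIs for the summed class), was 921 in shPml and 287 in shCTRL members. The 10 dendritic cell markers summed to 773 and 246 CPM. In the shPml library 4 cells carried most of these: cells of 6903 and 4846 UMIs held 115 and 103 of the 287 dendritic UMIs, and the 17588-UMI cell 107 of the 342 macrophage UMIs, with 45 each in the cells of 6903 and 14028 UMIs. Scrublet called 5 shPml and 6 shCTRL barcodes doublets in all, among them 0 shPml members and 1 shCTRL member. From the Y chromosome Kdm5d, Uty, Ddx3y and Eif2s3y gave 0 UMIs in the members of both libraries, which allows up to 8.08 and 41.0 CPM, and Xist, the X-inactivation RNA of female cells, gave 91 and 6. Cells with at least 2 Cd3 UMIs held 202 and 16 Y-linked UMIs, or 122 and 5.51 CPM. The shPml level lies above the 8.08 CPM that its members allow. The shCTRL level lies under the 41.0 CPM allowed there, so 0 UMIs in the shCTRL members is no contrast. Ratios without the cells rich in macrophage or dendritic genes are given beside the results they move. The part of the T cell RNA was not tested.

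The neutrophil label was checked on genes that the rule did not use. Shares of cells with a UMI were taken after each cell was thinned to 500 UMIs, since the Cd3 cells used as the background had a median of 1413 (shPml) and 4410.5 (shCTRL) UMIs. That background left out 4 shPml cells with 1% or more calprotectin. The levels of other genes follow in CPM, first in shPml and then in shCTRL members. Calprotectin transcripts, on chromosome 3 (S100a8 at chr3:90668978-90670035 and S100a9 at chr3:90692632-90695721, GRCm38), made up 14.1% and 14.7% of the members' UMIs, a level that the rule itself called for. G0s2, which encodes an inhibitor of fat breakdown, stood at 7880 and 6061 CPM and was found in 74.0% and 53.3% of thinned members against 1.38% and 0.489% of Cd3 cells. Csf3r, the G-CSF receptor that sustains neutrophils, stood at 1220 and 1218 CPM (48.1% and 40.0% of thinned members against 0.115% and 0% of Cd3 cells). Retnlg, a resistin-like secreted protein of mature neutrophils, stood at 3032 and 9399 CPM (34.6% and 40.0% against 0.230% and 0%). Hdc, the histamine-forming enzyme, stood at 1667 and 1614 CPM and the CXCL2 receptor gene Cxcr2 at 250 and 356 CPM. Ly6g, the antigen used to sort mouse neutrophils, gave 63 and 15 UMIs, 170 and 205 CPM, most of them in 1 cell of each library.

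By construction the members held few transcripts of the rule genes. Of the shPml members 49 had 0 such UMIs, 13 had 1 and 42 had 2 or more, and the shCTRL members split 5, 5 and 5. Summed over the members, Isg15 gave 180 and 22 UMIs, Rsad2 27 and 1, Ifit1 9 and 0, and Ifit3 0 and 0. The shPml members just inside the limit had 0.296, 0.275 and 0.269% of UMIs in these genes, and the cells just outside 0.312, 0.320 and 0.321%. In the shCTRL library the gap was wide, from 0.182% inside to 0.458% outside. Values therefore ran through the limit without a break in the shPml library. The cell of 728 UMIs at 0.275% and the cell of 625 UMIs at 0.320% both held 2 UMIs of the rule genes, so at such depths 1 UMI decides the class.

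Interferon-low cells made up 64.6% of the shPml neutrophils (104 of 161, Clopper-Pearson interval 56.7 to 72.0) and 78.9% of the shCTRL neutrophils (15 of 19, 54.4 to 93.9). The ratio was 0.818 and its interval held 1 (0.474 to 1.51). Over all kept cells the shares were 5.93% (104 of 1754, 4.87 to 7.14) and 1.75% (15 of 856, 0.984 to 2.87), a ratio of 3.38 (1.96 to 6.26). The sort, the mitochondrial limit, which left out 466 shPml and 1383 shCTRL barcodes, and the number of T cells beside the neutrophils can each set that second ratio. By depth, the interferon-low share in the shPml library was 82.6% under 1000 UMIs (19 of 23), 68.1% from 1000 to 3000 (32 of 47), 54.1% from 3000 to 5000 (33 of 61) and 66.7% at 5000 or more (20 of 30). In shCTRL all 11 neutrophils over 3000 UMIs were interferon-low, and of the 8 below it 4 were. A further 21 shPml and 5 shCTRL cells with at least 1% calprotectin UMIs were left out for a Cd3 or Cd79a UMI, 19 and 5 of them for only 1 or 2.

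**Figure D1:**
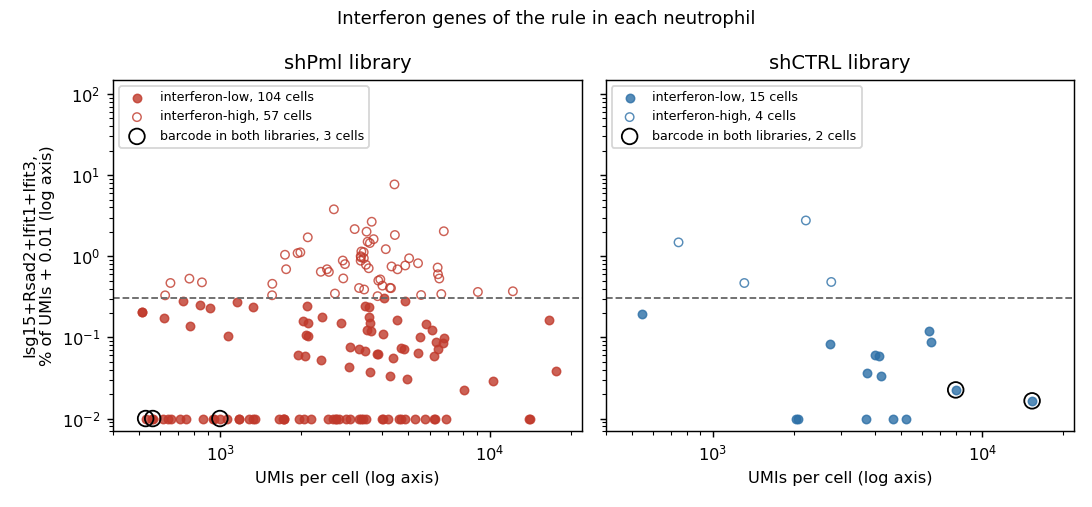
Share of each neutrophil's UMIs in the 4 rule genes (y, percent with 0.01 added, log axis) against its UMIs (x, log axis), with 1 panel per library and a dashed line at the limit of 0.3%. Filled points are the 104 and 15 interferon-low cells, open points the 57 and 4 interferon-high cells and black rings barcodes found in both libraries, all of which are interferon-low.

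The next comparison asked how the interferon-low cells differed from the interferon-high cells of the same library. The rule used this contrast, so its values are a description. Over the 1888 genes with at least 30 summed UMIs in the shPml library, 5.14% stood lower by 2-fold or more in interferon-low cells, 11.2% stood higher, and the median log2 ratio of all genes was 0.13. Scaling by the median of ratios gave 171 higher and 124 lower in place of 211 and 97. The interferon response outside the rule went with the rule genes: of 28 measured type I targets 26 stood below 0 (41.6% of all genes did) and 20 at 2-fold or more below, with a median of -2.03. Usp18, the protease that removes ISG15 from proteins and damps the receptor, stood at 13.5 CPM in the interferon-low and 235 CPM in the interferon-high cells of the shPml library (5 and 50 UMIs, log2 -4.12, -5.81 to -2.81). Cmpk2, the neighbour of Rsad2 that makes nucleotides for the same antiviral pathway, had 2 UMIs against 73 (log2 -5.99, -9.06 to -4.09). Ifit2, a relative of Ifit1, had 0 against 31 UMIs and was at least 18-fold lower, taking 3 counts in the whole class as the limit of detection.

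Other named antiviral genes were lower by similar amounts. Slfn5, a nuclear Schlafen protein, stood at 45.8 against 507 CPM (log2 -3.47), the ubiquitin ligase gene Herc6 at 18.9 against 230 CPM (log2 -3.61), and the oligoadenylate synthetase-like gene Oasl2 at 16.2 against 197 CPM (log2 -3.61). Trafd1, Trim30a, Isg20, Oasl1, Parp14 and Ddx58, which encodes the RNA sensor RIG-I, lay between log2 -2.25 and -2.92. The kept response was not uniform, however. Slfn4, a myeloid Schlafen gene, still stood at 353 CPM in the interferon-low cells against 1221 CPM (log2 -1.79, -2.11 to -1.48), and Irf7, the factor that amplifies the response, at 143 against 380 CPM. Membrane and related genes often counted as interferon targets hardly differed: Ifitm1 stood at 5642 against 6377 CPM (log2 -0.18, -0.28 to -0.08), Ifitm2 at 2787 against 2780 CPM and Ifi27l2a at 539 against 479 CPM.

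Genes of the interferon gamma response and of antigen presentation were lower as well. All 12 measured interferon gamma targets stood below 0 and 9 were past 2-fold, with a median of -1.43. Among them the guanylate-binding protein gene Gbp5 had 7 against 52 UMIs (log2 -3.70, -5.08 to -2.55), Gbp2 stood at 296 against 972 CPM (log2 -1.71), the immunity-related GTPase gene Ifi47 at 132 against 695 CPM (log2 -2.40) and Nos2, the inducible nitric oxide synthase, at 83.5 against 333 CPM (log2 -2.0, -2.66 to -1.37). All 12 measured MHC class I genes stood below 0, 6 of them past 2-fold, with a median of -0.91. The peptide transporter gene Tap2 lay at -1.77, the immunoproteasome gene Psmb9 at -1.34 and the light chain gene B2m at -0.77 (1282 against 2179 CPM). Cd274, which encodes the checkpoint ligand PD-L1, stood at 533 against 1733 CPM (log2 -1.70, -1.96 to -1.45), and the galectin gene Lgals9 lay at -1.57. Cxcl10, a T cell chemokine switched on by interferons, lay at 175 against 1165 CPM (log2 -2.73), with 1 cell giving 47.2% of the interferon-high UMIs.

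The receptors that start these responses did not follow their targets. Of 12 measured receptor and sensing genes 7 stood above 0 and 0 were lower by 2-fold, with a median of 0.08, close to that of all genes. Ifnar1 and Ifnar2, the chains of the type I interferon receptor, stood at 127 against 79.8 CPM (log2 0.66, -0.16 to 1.56) and 197 against 178 CPM (0.14, -0.45 to 0.75). Ifngr2, a chain of the interferon gamma receptor, stood at 94.3 against 32.9 CPM (35 and 7 UMIs, log2 1.52, 0.33 to 2.94). Jak1, the kinase shared by both receptors, stood at 253 against 216 CPM.

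**Figure D2:**
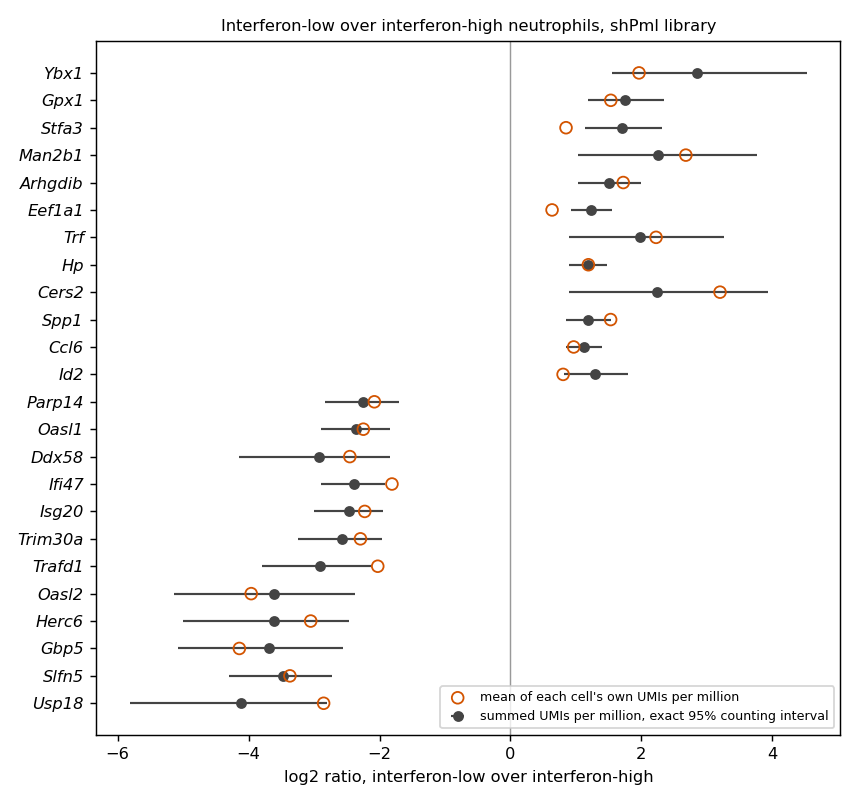
Log2 ratio of interferon-low over interferon-high neutrophils in the shPml library for the 12 named genes in each direction, with the rule genes left out. Filled points use summed CPM with exact 95% counting intervals, and open circles the mean of each cell's own CPM. The named lower genes lie between -4.12 (Usp18) and -2.25 (Parp14), and the open circles keep each gene's side of 0.

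Granule and oxidase genes lay on the higher side in the interferon-low cells of the shPml library. Of 15 measured specific granule genes 14 stood above 0 (58.4% of all genes did) and 9 were past 2-fold. Their median was 1.16, and 0.57 without each gene's top cell. A single cell of 14108 UMIs held 91.8% of the Camp, Ngp and Ltf UMIs of the interferon-low cells. Genes less bound to that cell included the haptoglobin gene Hp at 1360 against 601 CPM (log2 1.18, 0.90 to 1.47), the collagenase gene Mmp8 at 366 against 164 CPM (1.16, 0.61 to 1.74) and Cd177, a neutrophil surface protein, at 140 against 65.7 CPM (1.09). All 7 NADPH oxidase genes, which make the oxidative burst, stood above 0 and 0 were past 2-fold, with a median of 0.43. Its membrane subunit gene Cyba stood at 854 against 488 CPM (0.81, 0.48 to 1.14). Named genes outside the lists included the peroxide-clearing enzyme gene Gpx1 at 487 against 146 CPM (1.74, 1.19 to 2.34), the cold shock protein gene Ybx1 with 63 against 5 UMIs (2.85) and the elongation factor gene Eef1a1 at 1201 against 512 CPM (1.23). Without shared, deep and macrophage-gene cells Eef1a1 lay at 0.19 (-0.17 to 0.55), which ends its 2-fold difference. Of the 12 named higher genes 6 stayed past 2-fold in all 19 other settings, Gpx1 and Ybx1 among them, whereas all 12 named lower genes did. Ltb4r1, the receptor of the attractant leukotriene B4, stood at 345 against 169 CPM (1.03, 0.48 to 1.6).

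Medians of several other lists lay slightly below 0, with few genes past 2-fold. Over all genes 41.6% stood below 0, and 5.14% were lower and 11.2% higher by 2-fold. The hypoxia and glycolysis list had 19 of 25 below 0 (1 past 2-fold, median -0.29) and the immediate early list 18 of 21 below 0 (0 past 2-fold, median -0.22). The heat shock list was split, with 4 of 8 above 0, 2 higher and 0 lower by 2-fold and a median of 0.19. Of 17 measured tumour-neutrophil genes 14 stood below 0, with a median of -0.42, but Spp1, which encodes the secreted adhesion protein osteopontin, stood at 983 against 432 CPM (1.19, 0.85 to 1.53). That ratio depended on the limit: it was 0.33 and 0.42 at interferon limits of 0.2% and 0.5%, and -0.32 (-0.61 to -0.04) with the rule applied after thinning. The survival list had 8 of 10 below 0 (median -0.44), among them the kinase gene Pim1 at 3417 against 5142 CPM (log2 -0.59, -0.71 to -0.47). Lyz2, the myeloid lysozyme gene, stood at 2014 against 258 CPM (2.96), and Ccl9 at 296 against 4.70 CPM (110 and 1 UMIs). Of these interferon-low UMIs 1 cell gave 31.0% for Lyz2 and 54.5% for Ccl9, and the macrophage marker list stood at 921 CPM in interferon-low against 282 CPM in interferon-high cells.

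In the shCTRL library this contrast rested on 4 interferon-high cells with 7022 UMIs. Only 5 type I targets could be measured there, against a background of 28% of genes higher and 14.2% lower by 2-fold over 353 genes. Of these 5, 3 stood above 0, 2 were higher and 1 lower by 2-fold, and the median was 0.09, ranging from -1.77 to 1.82 over the settings tried. Genes that were lowest in the shPml library had few UMIs here: Usp18 had 0 UMIs in the 15 interferon-low cells and 4 in the 4 interferon-high cells, Herc6 0 and 7, and Slfn4 12 and 30 (log2 -4.70, -5.80 to -3.69). Cd274 stood at 629 against 3560 CPM (46 and 25 UMIs, log2 -2.50, -3.23 to -1.74).

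**Figure D3:**
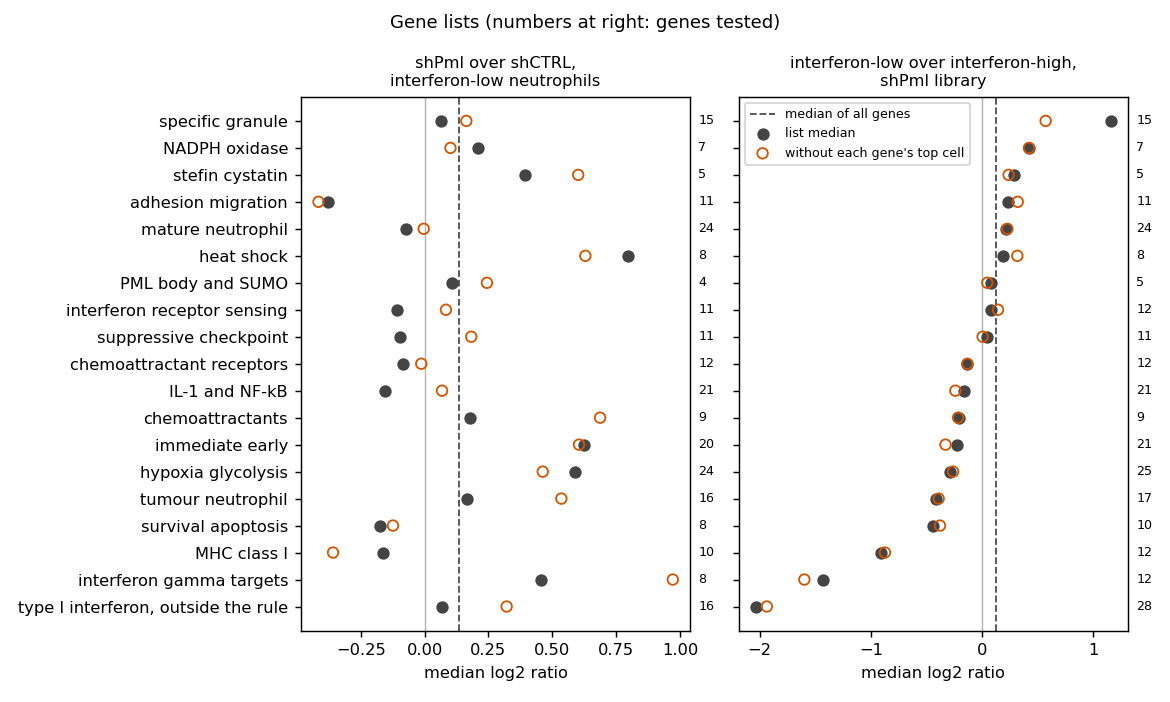
Median log2 ratio of each gene list (filled points) and the same without each gene's top cell (open circles), for shPml over shCTRL in interferon-low neutrophils (left) and for interferon-low over interferon-high cells in the shPml library (right). Dashed lines mark the median of all genes, 0.13 in both panels, and numbers give the genes measured. On the right the interferon and MHC class I lists lie lowest. On the left the filled points of heat shock, immediate early and hypoxia genes lie highest, and among open circles those of interferon gamma targets (0.97) and chemoattractants (0.69) do.

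The comparison the design is built on asked how the interferon-low neutrophils of shPml tumours differed from those of shCTRL tumours. Over 1590 genes with at least 30 summed UMIs, 12.7% stood higher by 2-fold or more in the shPml members (202 genes), 3.46% stood lower (55 genes), and the median log2 ratio was 0.13. Scaling by the median of ratios, which takes that 0.13 from every gene, gave 166 higher and 82 lower, so list medians between 0 and 0.13 turn negative under it. Heat shock, immediate early and hypoxia genes had the highest list medians, but only a minority of each list was past 2-fold. Without each gene's top cell, interferon gamma targets (0.97) and chemoattractants (0.69) had the highest medians instead. Osteopontin and a formyl peptide receptor stood lower. Of 12 named higher genes 7 stayed past 2-fold in all 19 other settings: Hsp90aa1, Ccl6, Inhba, Zfp36, Ccnl1, Osm and Iqsec1. Of 12 named lower genes 9 were past 2-fold and 3 stayed so: Spp1, Fpr1 and Jdp2. The type I targets outside the rule divided evenly: of 16 measured type I targets 8 stood above 0 and 8 below, 4 were higher and 0 lower by 2-fold, and the median was 0.07.

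Immediate early genes encode transcription factors and RNA regulators switched on within minutes of a stimulus. Of 20 measured, 16 stood above 0 (57.7% of all genes did) and 5 were higher and 0 lower by 2-fold, with a median of 0.63. Without each gene's top cell in each library that median was 0.60, beside 0.33 for all genes. The summed level of the list differed less, at 33199 CPM in the shPml and 29265 CPM in the shCTRL members (log2 0.18, 0.12 to 0.25). Jun, a subunit of the factor AP-1, stood at 751 CPM in the shPml and 150 CPM in the shCTRL members (279 and 11 UMIs, log2 2.32, 1.46 to 3.34). Its partner gene Fosb stood at 267 and 41.0 CPM (99 and 3 UMIs, 2.70, 1.11 to 5.0), Klf2, a factor that restrains myeloid activation, at 1357 and 369 CPM (1.88, 1.32 to 2.49), and Zfp36, which destroys cytokine mRNAs, at 1236 and 410 CPM (1.59, 1.06 to 2.17). Apart from Zfp36 these ratios depended on the limits. At an interferon limit of 0.5% Jun lay at 0.80 (0.27 to 1.38), Fosb at 0.80 (-0.10 to 1.84) and Klf2 at 0.29 (-0.05 to 0.65), and at a calprotectin limit of 0.5% Jun lay at 0.73. Junb and Dusp1 differed less, at 3186 and 2367 CPM (0.43) and 3151 and 2189 CPM (0.53). Btg1 and Gadd45b lay on the other side, at -0.65 (-0.81 to -0.49) and -0.76 (-1.12 to -0.39).

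The same genes ran the other way in the T cells of the same libraries. In cells with at least 2 Cd3 UMIs, Jun stood at 288 CPM in the shPml and 1392 CPM in the shCTRL library, Fosb at 86.6 and 427 CPM, Klf2 at 718 and 2320 CPM and Zfp36 at 108 and 283 CPM. These Cd3 cells also differed in sex-linked RNA. Xist was found in 76 of 869 shPml and 401 of 614 shCTRL cells, and Y-linked genes stood at 122 and 5.51 CPM. The part of this difference was not tested. Within the shCTRL library the 4 interferon-high neutrophils held 20 Jun and 78 Klf2 UMIs, 2848 and 11108 CPM. In those 4 cells 1 cell gave 48.6% of the immediate early UMIs, and over 15 measured genes of the list the low against high median in shCTRL was -0.06, with 7 above 0 and 8 below.

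All 8 measured heat shock genes, which encode chaperones, stood above 0, beside 57.7% of all genes. Of the 8, 2 were past 2-fold, beside 12.7% of all genes, and the median was 0.80, or 0.63 without top cells, beside 0.33 for all genes. Hsp90aa1, the inducible HSP90 chaperone, stood at 854 CPM in the shPml and 95.8 CPM in the shCTRL members (317 and 7 UMIs, log2 3.16, 2.10 to 4.48), whereas Cd3 cells held 1288 and 1262 CPM. It lay at 1.69 (1.04 to 2.42) at an interferon limit of 0.5%. The HSP70 gene Hspa1a had 58 and 3 UMIs (1.93, 0.31 to 4.25), and 41.4% of the shPml UMIs lay in 1 cell. The stress-induced small GTPase gene Rhob stood at 560 and 95.8 CPM (2.55, 1.48 to 3.88, but 0.96 at a calprotectin limit of 0.5%) and the cyclin gene Ccnl1 at 808 and 246 CPM (1.71, 1.03 to 2.49).

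Of 24 measured hypoxia and glycolysis genes 19 stood above 0 and 3 were past 2-fold, a share near the 12.7% of all genes. The median was 0.59, or 0.46 without top cells, beside 0.33 for all genes, and -0.019 at a calprotectin limit of 0.5%. Ero1l, an oxidase of protein folding induced by hypoxia, stood at 601 and 205 CPM (1.55, 0.80 to 2.41). The glucose transporter gene Slc2a1 stood at 552 and 246 CPM (1.16, 0.47 to 1.95) and the lipid droplet gene Hilpda at 1664 and 999 CPM (0.74, 0.38 to 1.11). The glycolytic enzyme genes Tpi1 and Pgam1 lay at 0.98 and 0.81, but Gapdh lay at -0.14 (2539 and 2805 CPM) and Pkm at 0.04. Hmox1, the haem-degrading enzyme gene, stood at 568 and 219 CPM (1.38, 0.64 to 2.21).

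**Figure D4:**
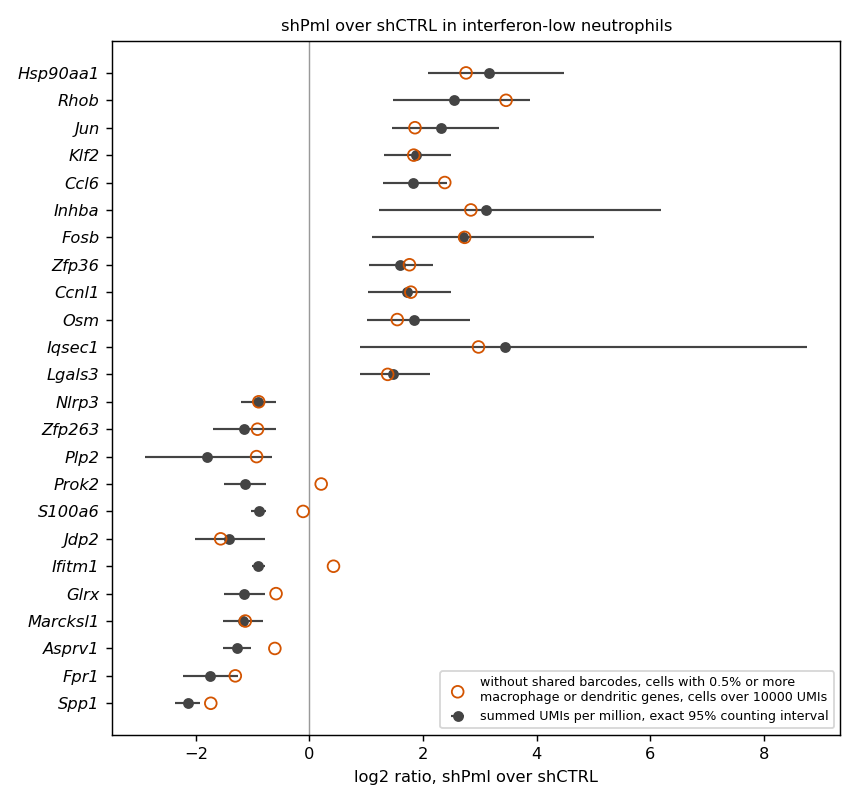
Log2 ratio of shPml over shCTRL interferon-low neutrophils for the 12 named genes in each direction. Filled points with exact 95% counting intervals use all members, and open circles leave out shared barcodes, cells with 0.5% or more macrophage or dendritic UMIs and cells over 10000 UMIs. The 12 higher genes stay above 0, whereas Prok2 and Ifitm1 cross 0 and S100a6 moves to -0.11.

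Secreted signals went both ways. Ccl6, a CC chemokine of myeloid cells, stood at 1408 and 397 CPM (1.83, 1.29 to 2.42), and Osm, which encodes the cytokine oncostatin M, at 590 and 164 CPM (1.84, 1.01 to 2.82). Inhba, a subunit of activin, had 88 and 2 UMIs (3.11, 1.22 to 6.18), and Lgals3, which encodes galectin-3, stood at 953 and 342 CPM (1.48, 0.89 to 2.13, but 0.67 at a calprotectin limit of 0.5%). Spp1 was lower, at 983 CPM in the shPml and 4351 CPM in the shCTRL members (365 and 318 UMIs, log2 -2.15, -2.37 to -1.92), and lay at -1.74 without shared, deep and macrophage-gene cells. Few cells made it: the highest shCTRL cell gave 39.0% of its UMIs, and the median share per cell was 0 in both libraries.

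Among the main chemokines and cytokines of tumour neutrophils, Cxcl2, Il1b, Ccl3 and Ccl4 differed by less than 2-fold over all members. Cxcl2, the leading neutrophil attractant here, stood at 40616 and 32371 CPM (0.33, 0.26 to 0.39) and lay at 0.04 without shared barcodes. Il1b stood at 16465 and 20714 CPM (log2 -0.33, -0.41 to -0.25), and its decoy receptor gene Il1r2 at 1842 and 2736 CPM (-0.57). The Il1b ratio moved to -0.64 (-0.73 to -0.55) without shared barcodes. It was -0.08 without each library's top cell and 0.04 at a calprotectin limit of 2%. Nlrp3, the sensor that leads to release of IL-1 beta, stood at 870 and 1628 CPM (-0.90, -1.21 to -0.59). Over 21 measured IL-1 and NF-kB genes 9 stood above 0 (57.7% of all genes did). Of these 21 genes 1 was higher and 0 lower by 2-fold, with a median of -0.16. Ccl2 and Cxcl1, attractants of monocytes and of neutrophils, lay at -1.74 and -3.19, but 1 shCTRL cell of 5227 UMIs, with only 1.24% calprotectin, held 194 of their 223 shCTRL UMIs. Another 22 of the 223 lay in a shCTRL cell of 4199 UMIs. Without each library's top cell, in shPml as well as shCTRL, Ccl2 lay at 2.12 and Cxcl1 at -3.79 (-5.09 to -2.63). A calprotectin limit of 2% also leaves out the 5227-UMI cell, and there Cxcl1 lay at only -1.003 (-1.73 to -0.24). The size of the Cxcl1 difference thus depended on the setting. Ccl3 and Ccl4 lay at 0.18 and -0.58 and at -0.30 and -1.13 without shared barcodes. Without each library's top cell they lay at 0.75 and 0.52 (0.17 to 0.88 for Ccl4).

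Receptors for attractants were measured in 12 genes, of which 5 stood above 0, 0 were higher and 1 was lower by 2-fold, with a median of -0.08. The lower gene was Fpr1, the receptor of bacterial formyl peptides, at 245 CPM in the shPml and 821 CPM in the shCTRL members (91 and 60 UMIs, log2 -1.74, -2.23 to -1.25). Its relative Fpr2 stood at 294 and 287 CPM. Of 11 adhesion genes 8 stood below 0, as 42.3% of all genes did (median -0.38), among them the cytoskeletal gene Coro1a at 972 and 1751 CPM (-0.85, -1.14 to -0.55), although the integrin gene Itgam stood higher at 409 and 192 CPM (1.10, 0.30 to 2.0). Other named lower genes were the aspartic protease gene Asprv1 (-1.28), the glutaredoxin gene Glrx (-1.15), the actin regulator Marcksl1 (-1.17), the AP-1 repressor gene Jdp2 (-1.41), Plp2 (-1.80) and Zfp263 (-1.15). Asprv1 and Glrx lay at -0.61 and -0.59 without shared, deep and macrophage-gene cells. In that setting Plp2 lay at -0.93, with an interval that held 0 (-2.46 to 0.88).

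The marker genes of the cells showed how far 1 barcode could set a level. Of 24 measured mature neutrophil genes 12 stood above 0 and 12 below, with a median of -0.07. S100a8 stood at 60032 and 56190 CPM (0.10, and -0.035 scaled by the median of ratios) and S100a9 at 81029 and 90859 CPM (-0.17). Both are among the 24 genes, and the rule selected on both in each library, so their likeness is not a result. Retnlg, on chromosome 16 at chr16:48872621-48874496, lay at -1.63 (-1.77 to -1.49), but the shared 15317-UMI shCTRL cell held 487 of the 687 shCTRL UMIs, and without shared barcodes the ratio was -0.27. That cell also gave 63.0% of the shCTRL S100a6 UMIs, 67.0% of Ifitm1 and 63.2% of Prok2, genes that lay at -0.89, -0.90 and -1.14 with it and at 0.20, 0.28 and 0.33 without shared barcodes. Its shPml partner barcode of 998 UMIs held 32 Retnlg UMIs, and the partner pair of 562 and 8855 UMIs held 18 and 396.

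Granule genes of immature neutrophils rested on single cells too. Of 15 measured specific granule genes 8 stood above 0, 5 were higher and 3 lower by 2-fold, and the median was 0.07. Over all genes these shares were 57.7%, 12.7% and 3.46%. The cathelicidin gene Camp had 149 and 3 UMIs, the lactoferrin gene Ltf 153 and 3, and Ngp 593 and 19. Of these 895 shPml UMIs, 822 lay in 1 cell of 14108 UMIs, whose calprotectin share was 36.5%. Chil3, another gene of that stage, had 81 and 0 UMIs, 75.3% of them in 1 cell. Without cells over 10000 UMIs Ngp lay at -1.23. The azurophil granule genes of still earlier precursors had 19 and 0 UMIs over 9 genes, and none reached the minimum. The proliferation list gave 14 and 3 UMIs. Granule genes less tied to 1 cell, such as Lcn2 (1446 and 1368 CPM) and Wfdc21 (2405 and 2298 CPM), had ratios of 0.08 and 0.07.

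Pml itself, on chromosome 9 at chr9:58218076-58249786, gave 1 UMI in the shPml members and 0 in the shCTRL members, which allows up to 41.0 CPM there. Pml had 33 and 112 UMIs in Cd3 cells, 38.6 CPM in those of shCTRL, so a level of that size could not have been told from 0 in the 73091 UMIs of the shCTRL members. Of 13 genes of PML nuclear bodies and the SUMO pathway that feeds them, 4 could be measured, with 2 above 0 and 0 past 2-fold and a median of 0.11. Sp100, the other scaffold of those bodies and an interferon target, stood at 156 and 109 CPM (0.51, -0.56 to 1.79), and within the shPml library at 156 CPM in interferon-low against 272 CPM in interferon-high cells (log2 -0.80, -1.35 to -0.25). Over all genes 57.7% stood above 0, and 12.7% were higher and 3.46% lower by 2-fold. Interferon gamma targets had 7 of 8 above 0, 2 higher and 0 lower by 2-fold and a median of 0.46, or 0.97 without top cells. Suppressive and checkpoint genes had 5 of 11 above 0, 3 higher and 1 lower by 2-fold and a median of -0.10. Interferon receptors and sensors had 2 of 11 higher and 0 lower by 2-fold, with a median of -0.11. NADPH oxidase (median 0.21), stefin and cystatin (0.39), MHC class I (-0.16) and survival genes (-0.17) had 0 genes past 2-fold in either direction.

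The members varied widely among themselves. Calprotectin ran from 1.05 to 38.7% of a cell's UMIs in the shPml members (median 8.91%) and from 1.24 to 28.8% in the shCTRL members (median 6.66%). Cxcl2 ran from 0 to 14.9% (median 2.96%) and from 0 to 8.98% (2.66%), and Il1b from 0 to 6.76% (1.6%) and from 0.170 to 7.0% (1.79%). Retnlg was at 0 in 52 of the 104 shPml members and 6 of the 15 shCTRL members, and reached 3.21% and 3.18%. The ranges of the libraries overlapped for every gene plotted by cell. Heat shock genes had medians of 0.186 and 0.146% of UMIs, hypoxia and glycolysis genes 1.16 and 0.702%, and immediate early genes 3.51 and 3.33%.

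Within the shPml members, cells with more calprotectin had more Retnlg (Spearman's rho 0.56 over 104 cells) and more Ifitm1 (0.47), and they were also the deeper cells (0.59 with UMIs). In the 15 shCTRL members calprotectin and Retnlg had a rho of 0.41. Calprotectin showed almost no relation to Il1b in the shPml members (0.01). Il1b followed G0s2 instead (0.44 and 0.75), and Ccl3 with Ccl4 followed Cxcl2 (0.56 and 0.79). These are correlations over cells of 1 library that share depth and total UMIs, and they are given as a description.

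**Figure D5:**
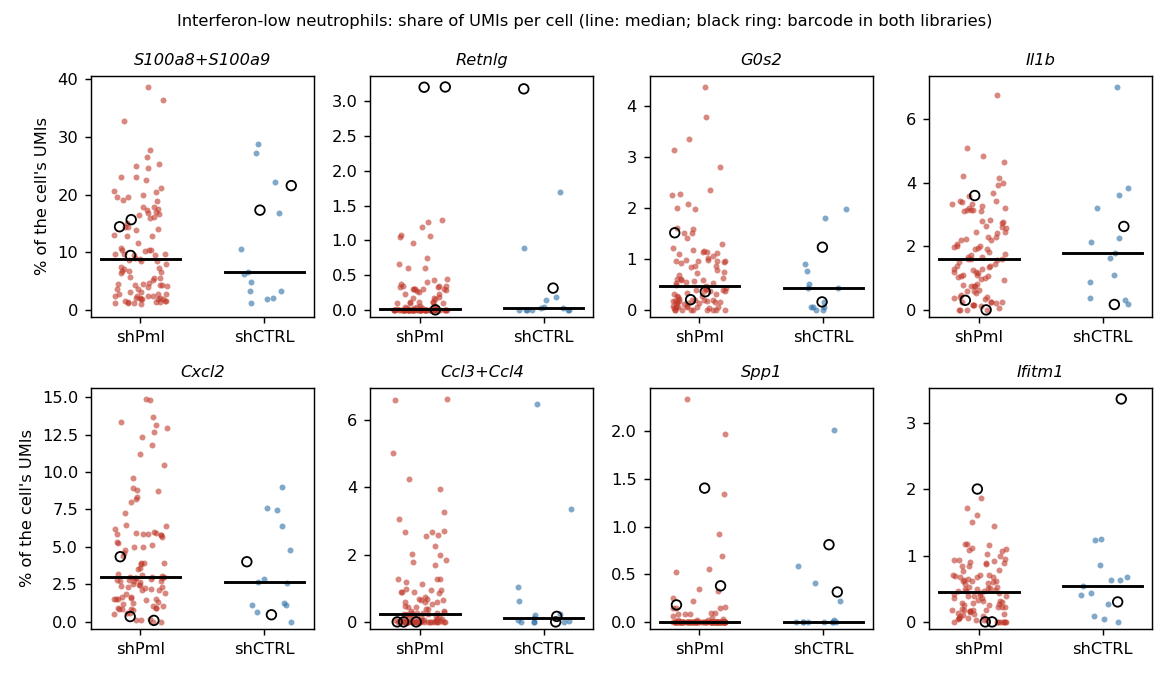
Share of a cell's UMIs (percent) in 8 genes or gene pairs for the 104 shPml and 15 shCTRL interferon-low neutrophils, with 1 point per cell, a line at the median and black rings around barcodes found in both libraries. The 3 highest Retnlg shares, near 3.2%, are all shared barcodes. Medians (shPml first) are close for Cxcl2 (2.96% and 2.66%) and Il1b (1.6% and 1.79%). They differ more for Ccl3 with Ccl4 (0.232% and 0.111%), Retnlg (0.008% and 0.025%) and calprotectin (8.91% and 6.66%).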

How the data were processed

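Single-cell 3′ transcripts of CD45-positive tumour cells were counted in 2 libraries, 1 per group. The deposited matrices hold UMI counts per gene and barcode for 32285 genes, and per the file headers Cell Ranger 4.0.0 made them. R 4.3.3, Seurat 4.4.0 and the mm10 build are listed in the submitters' processing notes without a role. The smallest barcode held 500 UMIs, so a filter had already been applied. The members, gene lists and tests were chosen with earlier results of these data known.

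Levels are a gene's UMIs summed over the cells of a class, per 1000000 of that class's UMIs, and ratios carry exact conditional Poisson 95% intervals. Shares carry exact Clopper-Pearson intervals. Both cover counting error only, since cells are not replicates. A gene was measured with at least 30 summed UMIs over the compared classes, and 2-fold means 1 on the log2 scale. A count of 0 was treated as allowing up to 3 counts in the class. Named genes were the 12 on each side whose nearer interval bound lay farthest from 0, with UMIs in at least 5 cells and at most 25% in 1 cell. That choice left out genes of ribosomal proteins, mitochondria, antigen receptors and haemoglobin, Xist, Y-linked genes and those with Gm or Rik names. Members of 20 programme lists, and Pml, were also named. Cd3 cells had at least 2 Cd3 UMIs and under 1% calprotectin. Doublets were called with Scrublet (20 components, in scanpy 1.11.5) and kept. On simulated counts 97.5% of 200 genes changed 4-fold were recovered past 2-fold in the library comparison (1590 genes) and 98.5% in the interferon comparison (1888 genes). Of the unchanged genes 6.403% and 1.955% also came out past 2-fold. These counts were Poisson draws of class sums without differences among cells, so the rates do not cover genes that rest on 1 cell. Another 18 settings were tried, and 3 more were added after seeing the data. Python 3.11.15, numpy 2.4.6, scipy 1.17.1, pandas 2.3.3 and matplotlib 3.10.9 were used.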

Additional observations from a re-analysis of the deposited data

Results flagged for a closer look

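For 7 of the genes named above, the interferon-low cells stood below the interferon-high cells in the shPml library and above them in the shCTRL library. The log2 ratios, shPml first and shCTRL second, were -0.24 and 1.23 for Il1b, -0.21 and 1.83 for Cxcl2, and -0.70 and at least 2.71 for Ccl4, which had 204 shCTRL UMIs against 0. Those of Ifitm1 were -0.18 and 1.68, and those of Cxcl1 -1.55 and at least 1.76, with 106 UMIs against 0. The bounds take 3 counts in the interferon-high cells. Nlrp3, with 1 UMI in those cells, lay at -0.51 and 3.52 (1.01 to 8.83), and Marcksl1, with 3, at -0.38 and 1.66 (0.08 to 3.97). These 7 include the main cytokine and chemokines of the cells. The shCTRL ratios rest on 4 interferon-high cells with 7022 UMIs in all, and the difference between the libraries was not tested. Over the 353 genes measured in shCTRL, 28% were higher by 2-fold or more in interferon-low cells, and the median log2 ratio was 0.28. On the interferon-low side the shared 15317-UMI cell gave most Ifitm1 UMIs. The cell of 5227 UMIs held 194 of the 223 Ccl2 and Cxcl1 UMIs. In the shPml library 41.6% of 1888 measured genes stood below 0. The share of all measured genes with such opposite signs is not given here. The shPml ratio of Il1b was -0.043 (-0.10 to 0.02) without shared, deep and macrophage-gene cells, and -0.085 with the mean of cells.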

How the results depend on the processing

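No paired analysis was possible because there was 1 library in each group. Over 18 other settings and 3 chosen after seeing the data, 32 values of genes and lists changed sign (26 gene ratios, 6 list medians). Another 164 moved by more than their interval (150 and 14), and 1753 did neither. Among the main results, which hold shares, counts of genes and some list medians, 27 values moved and 417 did not. The cause of these moves was not tested. Shares of kept cells became 13.7% (shPml) and 3.61% (shCTRL) at a mitochondrial limit of 5%, 7.97% (shPml) at 1000 or more UMIs and 7.69% with the rule applied after thinning. At an interferon limit of 0.5%, 75.2% of shPml neutrophils were interferon-low. In that setting Ccl3 and the chemoattractant median between libraries were -0.018, the granule median between interferon classes 3.13 and the shCTRL type I median -0.97. Between libraries, 520 genes stood higher and 277 lower with at least 10 summed UMIs, and 44 and 15 with at least 100. Between interferon classes of shPml these were 745 and 248, and 47 and 31. The shCTRL type I median was -1.77 with at least 10 UMIs and 1.82 without Scrublet doublets. The chemoattractant median between libraries was -0.090 with 14 interferon genes in the rule and -0.086 with at least 100 UMIs.

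Without shared barcodes, 84 genes stood lower between libraries, Ccl3 lay at -0.30, Ifitm1 at 0.28, Prok2 at 0.33, S100a6 at 0.20 and S100a9 at 0.13. The chemoattractant median was then -0.25 and the granule median 0.92. Without the top cell, 19 genes stood lower, Ccl2 lay at 2.12, Ccl4 at 0.52, Ifitm1 at 0.35, S100a6 at 0.13 and S100a9 at 0.013, and the granule median between interferon classes was 0.57. Without cells over 10000 UMIs (added), 111 genes stood higher between interferon classes, Ngp lay at -3.14 there and at -1.23 between libraries, Ifitm1 at 0.50, Prok2 at 0.11 and S100a9 at 0.050, with a granule median of 0.41 between interferon classes. Without shared, deep and macrophage-gene cells together (added), 84 genes stood higher between interferon classes and 127 between libraries. Ngp then lay at -4.20 and -2.52, Ifitm1 at 0.42, Prok2 at 0.21 and S100a9 at 0.12, and between interferon classes the chemoattractant median was 0.049 and the granule median 0.35. With the mean of cells, 105 genes stood lower and S100a8 lay at -0.031, and median-of-ratios scaling put S100a8 at -0.035. A calprotectin limit of 2% put Ccl2 at 2.19 and Il1b at 0.043, and a limit of 0.5% put the stefin median at -0.17. Thinning put Spp1 between interferon classes at -0.32.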
